A study of Mus musculus with 5 samples.

Results

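The genes of the leukemia inhibitory factor (LIF) and STAT3 pathway were followed from mouse embryonic stem (ES) cells, through fusion with a hepatoma line, to the differentiated fusion hybrids. The set held 10 genes: the ligand gene Lif, the receptor genes Lifr, Il6st, Il6ra and Osmr, the kinase genes Jak1 and Jak2, the transcription factor gene Stat3, and the target genes Socs3 and Pim1. Members were chosen by name, and probes were assigned to them through the RefSeq accession that the array design gives each probe. Of the 10 genes, 9 were represented, by 17 of the 41174 gene probes on the array, out of 18323 genes named in this way. No probe was assigned to Lif, so its RNA is not analysed here.

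LIF is a secreted cytokine of the interleukin-6 family. It binds a receptor made of LIFR and gp130, the product of Il6st, and the Janus kinases attached to that receptor phosphorylate STAT3, which moves to the nucleus and switches on its targets. In mouse ES cells this pathway holds back differentiation, and SOCS3, the product of one of its targets, shuts the receptor complex down again. In hepatocytes the same pathway, driven by interleukin-6, induces acute-phase plasma proteins.

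The series holds 5 arrays, a single one for each condition, so there is 1 value per gene and condition, no replicate error and no test. The ES array holds the line E14, and Hepa1-6 is a mouse hepatoma line. EHe is a hybrid of these lines made by fusion, EHeD7 is that hybrid after 7 days of differentiation and EHeD14 after 14 days. By the study's methods the ES parent carried a red fluorescent protein and hygromycin resistance, Hepa1-6 carried green fluorescent protein and neomycin resistance, and hybrids were near-tetraploid and were picked as colonies. Which colony was put on the array, and whether the parent arrays used the marked cells, is not given in the sources used here.

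ES and EHe were grown in a medium with serum replacement and 1000 units/ml of LIF, which by the study's methods also held a small amount of fetal bovine serum. For the differentiated hybrids the labels name high-glucose medium with 15% fetal calf serum and list no LIF, and for Hepa1-6 the same kind of medium with 10% fetal calf serum. The labels describe differentiation as a monolayer, whereas the study's methods describe embryoid bodies in another medium. Loss of LIF, the change of serum and the time in culture came together, so their effects on these genes cannot be told apart. ES, EHe, EHeD7 and EHeD14 shared a slide, and Hepa1-6 was on a second slide, so slide and line cannot be told apart in any comparison with Hepa1-6.

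Levels are log2 signals relative to the 75th percentile of the same array, so 0 is a bright spot and each unit is a doubling. The error given with a difference is the SD that spot noise alone would give it, taken from 245 probes printed 10 times on each array. It holds no variation between cultures. A probe was kept if the scanner software called it well above background on at least 1 array, as for 29975 probes and all 17 probes of the set, of which 13 were well above background on all 5 arrays. Where a probe was not well above background on one side, the fold is a lower bound, computed from the lowest signal called well above background on that array. Comparisons with Hepa1-6 depended on the scaling: centring each array on its median raised every Hepa1-6 level by 0.78 against ES, by 0.67 against EHe and by 0.83 against EHeD14 on the log2 scale, which moves each fold by over 1.5 times, and changes of direction or of side of the 3-fold threshold for a main probe are given beside its values. For genes with several probes, the main probe is the one well above background on most arrays and then the brightest. Bulk RNA was measured, so fewer cells of a type and less RNA per cell cannot be told apart.

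Socs3 had the largest decrease in the set on differentiation, and the bases just upstream of it are shown because STAT factors are known to bind the spaced palindrome TTCNNNGAA. The window runs from 250 bases before to 50 bases after the annotated start of the gene (RefSeq, build GRCm38.p6, minus strand, chr11:117969317-117969616), and the capitals mark its match to the palindrome, TTCTTAGAA, which begins 154 bases before the start.

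Socs3: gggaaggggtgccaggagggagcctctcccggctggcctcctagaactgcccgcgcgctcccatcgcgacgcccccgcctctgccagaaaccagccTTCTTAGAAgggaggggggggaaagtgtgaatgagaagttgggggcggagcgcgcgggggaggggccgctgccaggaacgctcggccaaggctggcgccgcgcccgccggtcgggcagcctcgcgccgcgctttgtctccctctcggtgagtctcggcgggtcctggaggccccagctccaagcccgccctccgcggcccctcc

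For comparison, the window of Cish, another gene of the SOCS family that is known as a STAT target, is on the plus strand at chr9:107296409-107296708 of the same build. It holds 2 matches in capitals, TTCCTGGAA at the start base and TTCTTGGAA 11 bases further on.

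Cish: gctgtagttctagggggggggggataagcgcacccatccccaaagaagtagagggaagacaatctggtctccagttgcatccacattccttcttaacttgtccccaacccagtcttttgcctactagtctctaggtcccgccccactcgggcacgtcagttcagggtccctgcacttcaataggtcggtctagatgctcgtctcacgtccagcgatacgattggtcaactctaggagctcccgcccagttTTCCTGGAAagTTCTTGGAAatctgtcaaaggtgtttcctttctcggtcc

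The palindrome reads the same on both strands. It was present in 8.30% of the 32851 RefSeq windows of 300 bases and in 1 of the 12 windows that belong to the 10 genes, that of Socs3. Of 58 windows of 40 other pathway genes counted further below, 4 (6.9%) held it, that of Cish among them. The windows of Socs1 and Socs4 held none. Windows with 2 or more matches, as that of Cish, made up 0.457% of all windows. The narrower form TTCCNGGAA, which lies inside the wider one, was present in 1.15% of all windows and in none of the 12. A match is a description of these letters and no evidence of binding.

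Among the 9 measured genes, differentiation of the hybrid went with 1 decrease and 1 increase of over 3-fold by measured signal. Socs3 was lower and Osmr was higher than in EHe at day 7, and the same was true of both genes at day 14. Osmr was not well above background in EHe, so as a bound its increase was only at least 1.86-fold at day 7 and at least 1.98-fold at day 14. Over all kept probes, 8.00% exceeded EHe by more than 3-fold and 4.21% fell short of it by as much at day 7, and at day 14 the shares were 8.20% and 4.66%, so 1 gene of 9 in each direction is near the background of the array. The median log2 difference of the 9 genes was 0.27 (day 7) and 0.33 (day 14), beside -0.08 and -0.06 for all kept probes. With each array centred on its median these array-wide medians became -0.26 and -0.22, and the day 7 shares became 6.74% higher and 5.41% lower. That setting moves every probe of a comparison by the same amount, so the medians of the 9 genes moved down with the array-wide ones.

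**Figure D1:**
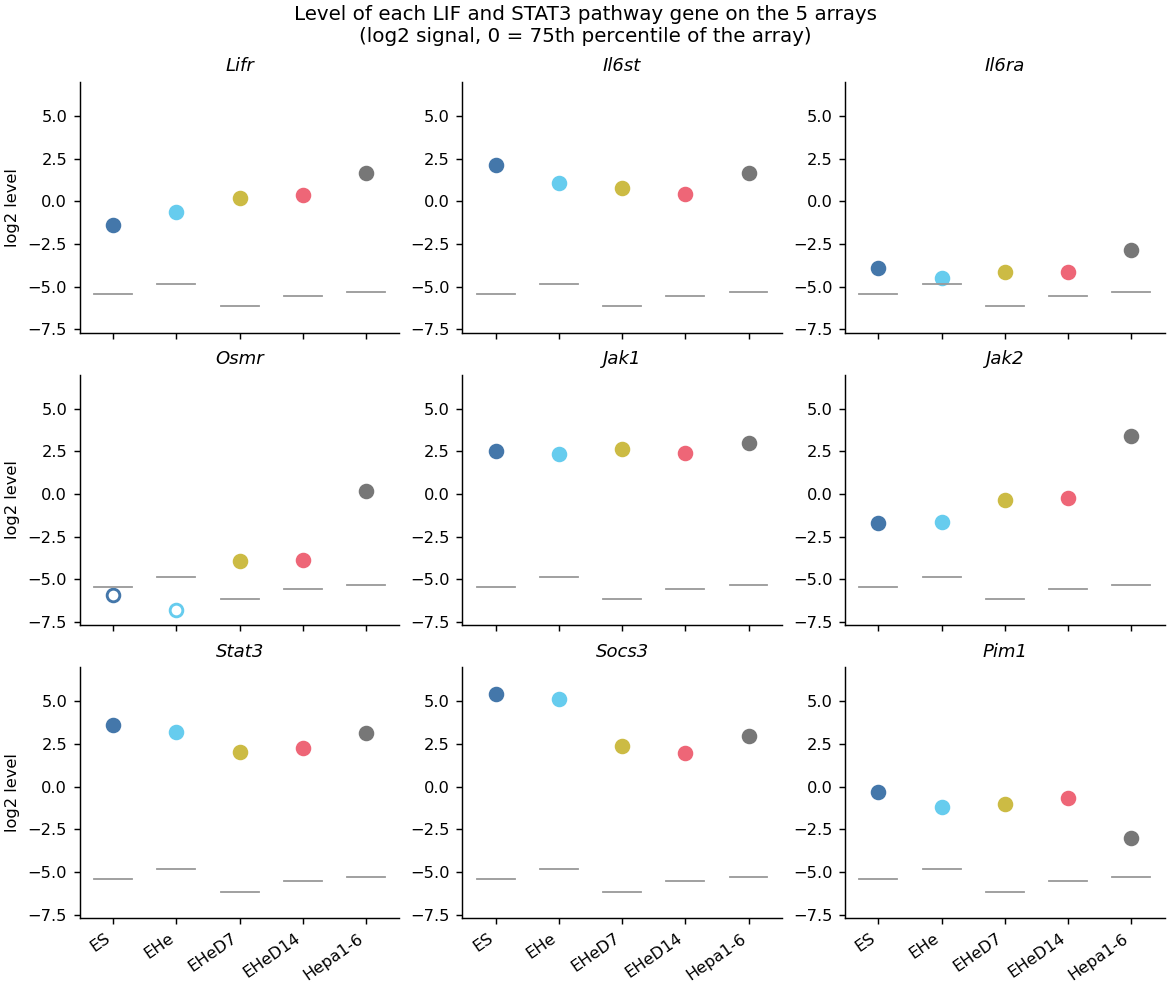
Levels of the main probe of each of the 9 genes (y axis, log2 signal with 0 at the 75th percentile of the array) on the 5 arrays (x axis, 1 array each); bars, mostly hidden by the points, are the SD of spot noise, open points were not well above background, and grey ticks mark the lowest signal called well above background. Socs3 reads 5.14 in EHe but 2.39 and 1.97 in the differentiated hybrids, while Osmr and Jak2 are highest in Hepa1-6.

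Of the receptor genes, Lifr encodes the LIF-binding chain. Its main probe had a level of -1.40 on the ES array, -0.61 in EHe, 0.23 and 0.39 in EHeD7 and EHeD14, and 1.64 in Hepa1-6. It was thus lowest in the stem cells and highest in the hepatoma, with EHeD7 and EHeD14 within 2 SD of spot noise of each other. Against EHe the difference was 0.83 ± 0.10 at day 7, a 1.78-fold increase, and 1.00 ± 0.11 at day 14, a 1.99-fold increase. The gene had 5 probes in all, and each of them read higher in both differentiated hybrids than in EHe, by 0.32 to 1.17 at day 7 and by 0.36 to 1.19 at day 14.

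The 5 Lifr probes did not run together in the other comparisons. From ES to EHe, 2 probes read higher, by 0.79 and 0.86, and 3 read lower, by 0.13, 0.41 and 0.89. In Hepa1-6 against ES the main probe was 8.20-fold higher, whereas the others ranged from -0.51 to 0.95 on the log2 scale. Under median centring these 4 ranged from 0.27 to 1.73, with 1 of them past 3-fold. The 8.20-fold value therefore rests on 1 of 5 probes, and whether the probes read different transcripts was not tested.

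**Figure D2:**
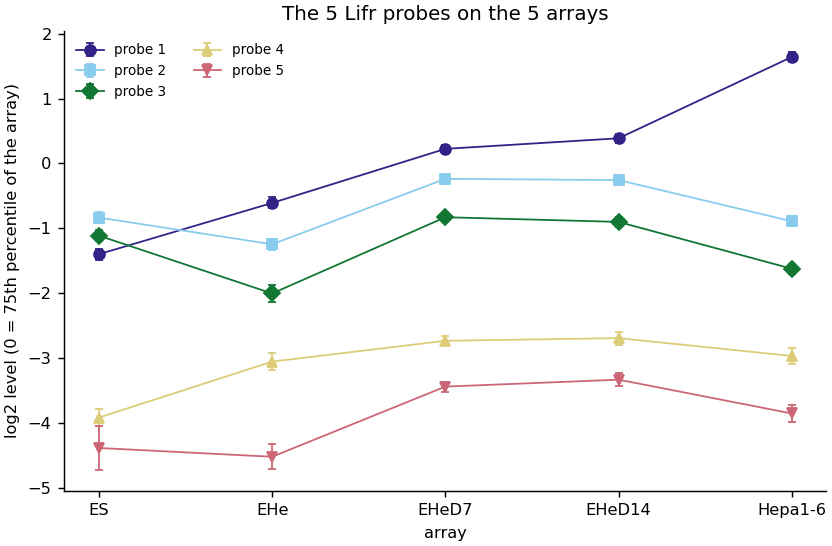
The 5 Lifr probes (lines, log2 level on the y axis with 0 at the 75th percentile of the array) on each of the 5 arrays (x axis); bars are the SD of spot noise, and levels are comparable along a line, not between lines. All 5 lines go up from EHe to EHeD7, and with the scaling drawn only probe 1 goes on up to 1.64 in Hepa1-6, whereas under median centring all 5 are higher in Hepa1-6 than in EHeD14.

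Il6st encodes gp130, the signalling chain shared by the whole cytokine family. Its level was 2.11 on the ES array, 1.09 in EHe, 0.79 and 0.43 in EHeD7 and EHeD14, and 1.65 in Hepa1-6. All neighbours in this order differed by more than 2 SD of spot noise, with both parents above the hybrid, EHeD7 below EHe and EHeD14 below EHeD7, although ES and Hepa1-6 changed places when arrays were centred on their medians. On the log2 scale it was below EHe by 0.30 ± 0.09 at day 7, and EHeD14 was lower by 0.66 ± 0.10, or 1.58-fold. Against ES, EHe was 2.03-fold lower and EHeD14 was 3.21-fold lower. Lifr and Il6st, whose products form 1 receptor, thus differed from EHe in opposite directions in the differentiated hybrids.

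Il6ra encodes the chain that binds interleukin-6 and was dim throughout. Its main probe read -3.88 on the ES array, -4.47 in EHe, -4.15 and -4.14 in EHeD7 and EHeD14, and -2.84 in Hepa1-6. Only Hepa1-6 stood above its neighbour in the order by more than 2 SD of spot noise, at 2.05-fold over ES on this probe and 2.16-fold on the second, which was not well above background in EHe and gave EHeD14 as at least 1.26-fold above it. The difference of the main probe between Hepa1-6 and ES was 1.04 on the log2 scale, but 1.61 with quantile normalization and 1.82 with median centring, both past 3-fold, and 0.43 with normexp. The difference from EHe, 0.31 ± 0.31 at day 7 and 0.33 ± 0.33 at day 14, was no larger than spot noise.

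Osmr encodes the receptor chain for oncostatin M, which pairs with gp130 as LIFR does. Its main probe read -5.94 in ES and -6.80 in EHe, both not well above background, then -3.94 in EHeD7, -3.85 in EHeD14 and 0.18 in Hepa1-6, all well above it. The measured difference from EHe was 2.86 at day 7 and 2.95 at day 14, past 3-fold, but as bounds these are at least 1.86-fold and at least 1.98-fold. The Hepa1-6 level was at least 48.6-fold above ES and 16.4-fold above EHeD14. A second, dimmer probe was well above background in Hepa1-6 alone, at least 2.98-fold above ES, and gave no value for the hybrids. The decrease of Socs3 held under every alternative that was run, whereas the Osmr increase fell below 3-fold with normexp background correction, with the mean of both probes and with dim signals set at the detection limit.

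Genes known to mark fibroblasts and mesenchyme were higher in the same 2 arrays as Osmr and Lifr. Of 8 such genes with a probe, 3 were well above background in EHe and 6 in each of EHeD7 and EHeD14, and 6 of the 7 kept were over 3-fold higher at day 14 than in EHe by measured signal, 3 of them only as bounds under 3-fold. Their summed signal, in units of the 75th percentile of the array, was 0.97 in EHe, 4.6 in EHeD7 and 5.27 in EHeD14. Col1a1, a type I collagen chain, went from a level of -4.17 in EHe to 0.29 and 0.11, and Lum and Dcn were not well above background in any hybrid. In Hepa1-6, where Osmr and the main probe of Lifr were highest, 3 of the 8 were well above background. Col1a1 was not, at -5.83, whereas Dcn read 7.46 there. Of 5 endoderm marker genes, Sox17, Gata6 and Foxa2 were over 3-fold higher at day 14 than in EHe, with a list median of 1.87. At day 7, 1 of 5, Foxa2, was by measured signal. Foxa2 was not well above background in EHe, and its day 7 level of -4.57 lay little above the EHe detection limit of -4.84. The summed signal of the 5 endoderm genes in the same units was 3.71 in ES, 0.38 in EHe, 0.58 in EHeD7 and 1.41 in EHeD14. All 5 were lower in EHe than in ES, 3 of them over 3-fold. The part of such cells in the Osmr and Lifr values was not tested.

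Jak1 encodes a kinase that carries much of the gp130 signal. Its main probe read 2.51 on the ES array, 2.37 in EHe, 2.64 and 2.43 in EHeD7 and EHeD14, and 3.01 in Hepa1-6. Apart from Hepa1-6, neighbours in this order lay within 2 SD of spot noise of each other. A second probe read 1.73, 2.75, 2.53, 2.50 and 2.22 on the same arrays, and both probes kept the differentiated hybrids within 0.27 of EHe on the log2 scale. They disagreed for EHe against ES, where one was lower by 0.14 ± 0.11 and the other was 2.03-fold higher.

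Jak2, the other kinase gene, showed the widest range in the set after Osmr. Its level was -1.70 in ES and -1.64 in EHe, which did not differ beyond spot noise, then -0.32 in EHeD7 and -0.23 in EHeD14, which also did not, and 3.39 in Hepa1-6. The differentiated hybrids were 2.50-fold and 2.67-fold above EHe, the largest increase in the set among genes well above background on both sides. Hepa1-6 was 34.1-fold above ES and 32.8-fold above EHe, and EHeD14 was still 12.3-fold below Hepa1-6. A second Jak2 probe was well above background in Hepa1-6 alone, at least 4.73-fold over ES, and so could not bear on the hybrids.

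**Figure D3:**
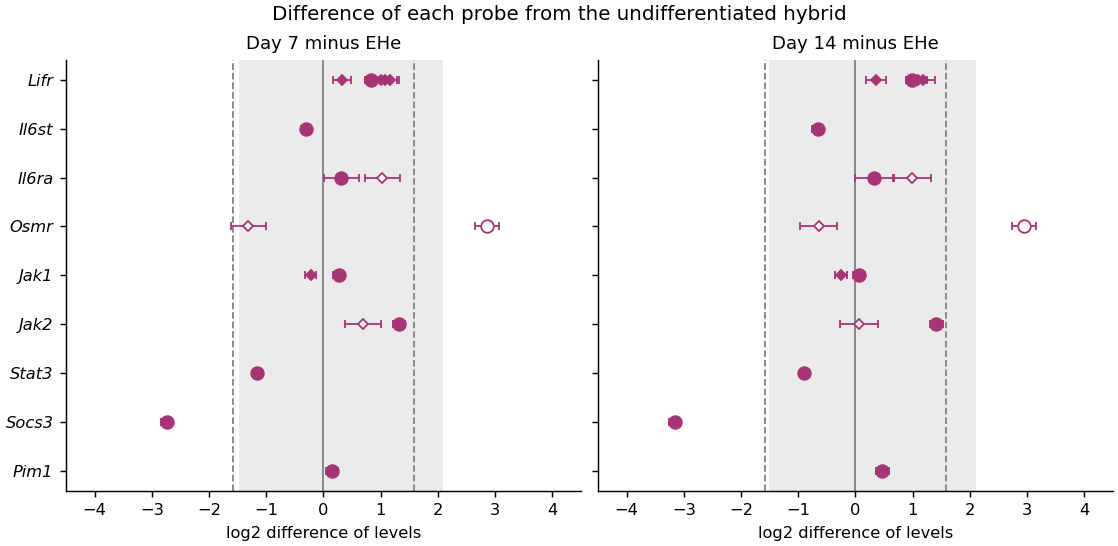
Log2 difference of every probe from EHe at day 7 (left) and day 14 (right); large circles are main probes, small diamonds further probes, bars the SD of spot noise, and open symbols have at least 1 side not well above background. The grey band holds the middle 90% of all kept probes and the dashed lines mark 3-fold; Socs3 lies to the left of the band at both days, and Osmr, as an open symbol, to the right.

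Stat3 encodes the transcription factor itself, and its probe was printed 10 times, so each array gives 10 readings. The lowest, median and highest spot levels were 3.51, 3.58 and 3.78 in ES and 3.1, 3.19 and 3.26 in EHe. In EHeD7 they were 1.88, 2.00 and 2.23, and in EHeD14 2.22, 2.29 and 2.39. In Hepa1-6 they were 3.02, 3.18 and 3.23. No spot of a differentiated hybrid reached the lowest spot of EHe, and with this scaling the spots of EHe overlapped those of Hepa1-6, as the spots of EHeD7 did those of EHeD14.

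The mean difference of Stat3 from EHe was -1.16 ± 0.03 at day 7, a 2.23-fold decrease, and -0.89 ± 0.03 at day 14, a 1.86-fold decrease. The level was thus 0.26 higher at day 14 than at day 7. EHe was 1.33-fold below ES. It differed from Hepa1-6 by 1.02-fold, within 2 SD of spot noise, but under median centring Hepa1-6 was 1.56-fold above EHe, so no direction is given. The spots of an array come from 1 RNA sample, so these small errors do not speak to other cultures.

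**Figure D4:**
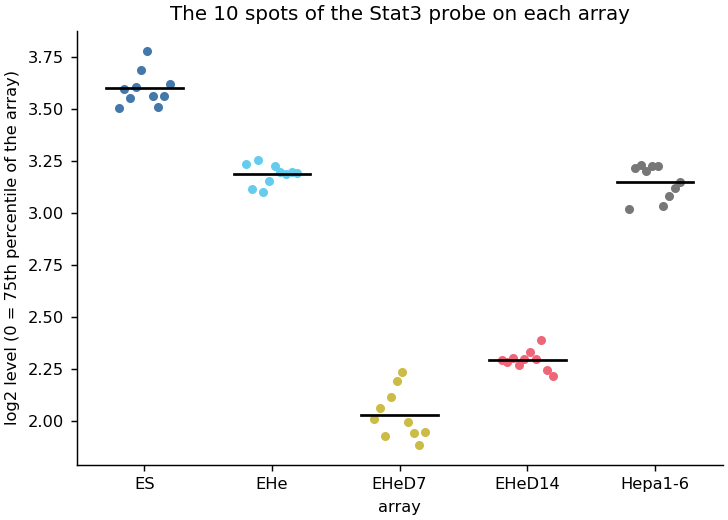
All 10 spots of the Stat3 probe (points; y axis, log2 level with 0 at the 75th percentile of the array) on each of the 5 arrays (x axis), with their mean as a black line. The EHeD7 and EHeD14 spots reach at most 2.39, under every spot of the other arrays.

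Socs3 encodes the feedback inhibitor that binds gp130 and the Janus kinases. It was one of the brighter genes of the stem cell arrays, with a level of 5.46 on the ES array, 5.14 in EHe, 2.39 and 1.97 in EHeD7 and EHeD14, and 2.97 in Hepa1-6. The scanner signals behind these levels were 47936, 45441, 6865, 5236 and 11414. ES and EHe, undifferentiated and grown with LIF, were high, and the other 3 arrays were low. By the labels these 3 came from medium with fetal calf serum, but the study's methods give serum replacement for the differentiated hybrids. Every neighbour in the order differed by more than 2 SD of spot noise. The decrease against EHe was 2.74 ± 0.10 on the log2 scale at day 7, or 6.69-fold, and 3.16 ± 0.10 at day 14, or 8.96-fold. Of all kept probes, 3.49% lay further from EHe than Socs3 at day 14. Hepa1-6 was 4.49-fold below EHe and EHeD14 was 2.00-fold below Hepa1-6, which became 2.81-fold and 3.55-fold under median centring, so both changed sides of the 3-fold threshold.

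Pim1 encodes a serine/threonine kinase and is known as a STAT3 target, yet it did not run with Socs3. Its level was -0.33 on the ES array, -1.16 in EHe, -1.01 and -0.69 in EHeD7 and EHeD14, and -3.03 in Hepa1-6. In the differentiated hybrids it was 0.15 ± 0.11 above EHe at day 7 and 0.47 ± 0.11 above it at day 14. It was lowest in Hepa1-6, 6.53-fold below ES and 3.66-fold below EHe (3.80-fold and 2.30-fold under median centring), whereas Socs3 was lowest in EHeD14.

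Between EHe and ES, the undifferentiated hybrid and its stem cell parent, none of the 9 genes was past 3-fold. Of all kept probes, 3.69% were over 3-fold higher and 5.66% lower in EHe. The median of the 9 genes was -0.41, beside -0.06 for all kept probes. By main probes, 6 of the 8 genes well above background on both arrays were lower in EHe than in ES. The share of all kept probes that were lower was not counted. Jak1, among the 6, differed by -0.14 ± 0.11 and was higher by its second probe. Lifr, counted as higher, was lower by most of its probes. Socs3 was 1.25-fold lower and Pim1 was 1.78-fold lower. Both were grown in the same medium with LIF, and fusion, drug selection and the picking of colonies cannot be told apart here.

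Between the parents, 3 of the 9 genes (Lifr by its main probe, Osmr and Jak2) exceeded the ES level by more than 3-fold in Hepa1-6, and 2 (Socs3 and Pim1) were over 3-fold below it. Of all kept probes, 14.3% were higher and 25.3% were lower, and this split depended on the scaling. It became 23.5% higher and 15.6% lower with each array centred on its median, where the median of all probes moved from -0.40 to 0.39, and 17.6% and 18.7% with quantile normalization. Il6st and Stat3 were lower in Hepa1-6 than in ES by 0.46 and 0.45 on the log2 scale, and each became higher under median centring, by 0.33, so no direction is given for them. Il6ra joined the genes over 3-fold higher with quantile normalization and with median centring, for 4 higher and 2 lower of 9.

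The levels in EHeD14 can be set between those of EHe and Hepa1-6. For Lifr, Osmr and Jak2, EHeD14 was above EHe and below Hepa1-6 by the main probe, whereas the other 4 Lifr probes put EHeD14 above Hepa1-6 by 0.28 to 0.72 on the log2 scale, and below it, by 0.11 to 0.55, under median centring. For Socs3 and Il6st, EHeD14 was below both, and for Stat3 it was 1.86-fold below EHe and 1.81-fold below Hepa1-6, or 3.22-fold below Hepa1-6 under median centring. For Pim1 it was 1.39-fold above EHe and 5.07-fold above Hepa1-6, or 2.86-fold under median centring. By the main probes, EHeD14 was below Hepa1-6 by 2.38-fold for Lifr, 2.34-fold for Il6st and 2.46-fold for Il6ra. Under median centring these became 4.23-fold, 4.16-fold and 4.36-fold, so each changed sides of the 3-fold threshold. EHe enters both of the differences at day 7 and at day 14, which therefore share their error.

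The other genes of the pathway were counted in 6 lists holding 59 genes with a probe, of which 56 were kept. At day 14, 8 of the 56 (14.3%) were over 3-fold higher than in EHe and 8 (14.3%) over 3-fold lower, with a median difference of -0.01. The shares of all kept probes at day 14, 8.20% higher and 4.66% lower, are the background for these counts and for those of the single lists below. At day 7 the counts were 7 and 8.

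Among other ligands of the family, 1 of 6 kept genes was over 3-fold higher at day 14 and 1 lower. Osm, the gene of oncostatin M, had a level of -3.79 in ES, -1.53 in EHe, -4.83 in EHeD7 and -5.28 in EHeD14, and it was not well above background in Hepa1-6. It was 13.5-fold lower at day 14 than in EHe, while the signal of its receptor gene Osmr was higher. Il11, which encodes a cytokine that also signals through gp130, was 3.44-fold higher at day 14. Ctf1, the gene of cardiotrophin 1, and Cntf, that of ciliary neurotrophic factor, were within 1.36-fold of EHe, and Il6 was not well above background on any array.

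Of the other receptors of the family, Cntfr, which encodes the receptor chain of ciliary neurotrophic factor, read -1.98 in ES, -0.44 in EHe, -1.04 at day 7 and -1.44 at day 14, and was 2.00-fold lower at day 14 than in EHe. Il27ra was 1.26-fold higher and Il11ra1 1.09-fold lower at day 14, so these 3 receptor genes lay within 3-fold of EHe.

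None of the 8 other Janus kinase and STAT genes was past 3-fold at day 14. Tyk2 and Jak3, further Janus kinases, were 2.42-fold and 2.15-fold lower than in EHe, and Stat5b was 2.01-fold higher. Stat4 was 1.29-fold higher. The list median was -0.18.

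Of 15 negative regulators, 2 were over 3-fold higher at day 14 and 1 lower, with a list median of 0.00. The SOCS family, whose members feed back on cytokine receptors, was split. Socs1 read -0.16 on the ES array, 0.18 in EHe, 1.94 and 2.35 in EHeD7 and EHeD14, and -0.81 in Hepa1-6, a 4.52-fold increase from EHe to day 14. Socs5 was 5.83-fold higher at day 14 and highest in Hepa1-6. Socs2 read 2.59, 3.1, 0.79, 0.78 and 0.31 on the 5 arrays in the same order and was 4.97-fold lower at day 14. Socs3 and Socs2 were thus lower, and Socs1 and Socs5 higher, in the differentiated hybrids. Cish, whose window is printed above and which was named after its values were seen, was 2.22-fold higher. Pias2, which encodes a SUMO ligase of the PIAS family, was 2.19-fold lower.

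Of 12 genes known as STAT3 targets in ES cells, 5 were over 3-fold lower at day 14 and 2 over 3-fold higher, with a list median of -0.12. Gbx2, a homeobox gene, read 1.02 in ES, 2.17 in EHe and -3.99 in EHeD7 and was not well above background in EHeD14, at least 207-fold below EHe. Klf4, a zinc-finger factor of the pluripotency network, read 5.52, 5.64, 1.53 and 0.25 on these arrays, a 41.8-fold decrease at day 14, and 4.54 in Hepa1-6. The other genes past 3-fold lower, named after their values were seen, were Bcl3 at 24.0-fold, Tfcp2l1 at 13.1-fold and Klf5 at 6.53-fold. Myc was 4.72-fold and Ier3 3.19-fold higher at day 14, although Myc was also 5.34-fold lower in EHe than in ES. The Myc values are from its main probe. A further Myc entry in the study's supplement, given as ratios to Hepa1-6, has the same directions but smaller differences, neither past 3-fold. The remaining 5 genes, also named after their values were seen, were Pim3, Junb, Sgk1, Mcl1 and Bcl2l1, which lay within 1.41-fold of EHe at day 14, as Pim1 did within 1.39-fold.

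Genes known to mark the ES cell state were counted beside these targets, as a separate list. Of 5 ES cell marker genes with a probe, 3 were over 3-fold lower at day 14, with Esrrb 116-fold lower and Zfp42 17.0-fold lower, whereas Pou5f1 was 1.1-fold higher. All 5 were well above background in both differentiated hybrids. The part of this change in the values of Klf4, Tfcp2l1 and Socs3 was not tested.

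**Figure D5:**
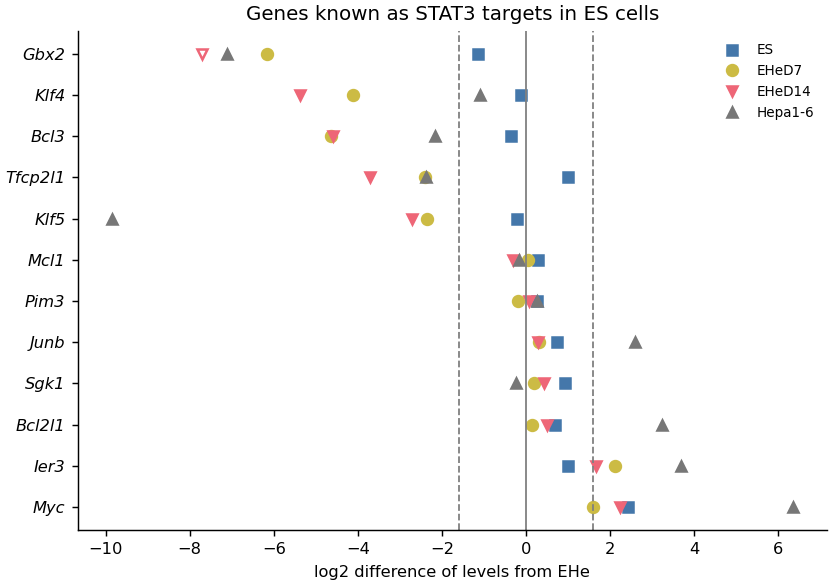
Log2 difference from EHe (x axis; dashed lines mark 3-fold) of 12 genes known as STAT3 targets in ES cells (y axis), on the ES, EHeD7, EHeD14 and Hepa1-6 arrays; open symbols were not well above background. In the differentiated hybrids 5 genes lie far to the left, 5 lie near 0, and Ier3 and Myc lie to the right.

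The acute-phase genes that the pathway is known to induce in liver were mostly dim in the hybrids. Of 11 kept, 2 were over 3-fold higher at day 14 and 1 lower by measured signal, but each of these had a side not well above background. Lbp and Fgg were at least 2.07-fold and at least 1.20-fold higher, and Saa3 and Orm1 at least 2.72-fold and at least 2.68-fold lower. In Hepa1-6, Hpx, the gene of hemopexin, was 284-fold above ES, while Saa1 was 1.99-fold below ES. The labelled cell types were checked by their markers. Hepa1-6 had Alb at 6.06 and Afp at 6.77, but Ttr and Apoa1 were not well above background there, and Dcn, a fibroblast marker, read 7.46. Blood markers were near background, with Ptprc and Adgre1 not well above it on any array.

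The genes whose pattern over the 5 arrays was most like that of Socs3 were Kat6b, Brpf3 and Zmym3. Their root mean square distance from Socs3, after each gene was centred on its own mean, was 0.26, 0.28 and 0.31 on the log2 scale, and 19 of 10911 genes well above background on all arrays lay within 0.5. For the main probe of Lifr the closest were Nyap1, S100a10 and Zfp52, at 0.04, 0.09 and 0.11, and 366 genes lay within 0.5. These are distances over 5 values each, so many genes can share a pattern.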

How the data were processed

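RNA of 5 cell populations was hybridized to 1-colour mouse oligo arrays, 1 array each. The dye was Cy3 by the labels and Cy5 by the study's methods. The authors deposited, for each of 45018 spots, the processed signal, an intensity that Agilent Feature Extraction 10.7.3.1 had corrected for background and detrended, with the spot flags and no scaling between arrays. The deposited series table held the same intensity values. Control spots were dropped, as were 73 to 174 outlier spots on each array, and none of the rest was saturated. Intensities were divided by the 75th percentile of the array (1087 in ES to 1456 in Hepa1-6), put on the log2 scale and averaged per probe. The share of probes well above background was 54.7% to 67.6%. Array number limits the precision.

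Names came from RefSeq accessions (GRCm38.p6 tables), which left 14294 of 41174 probes unnamed. The threshold was 3-fold. The named genes were the 10 members with all their probes and, in each wider list, up to 2 of the largest increases and 2 of the largest decreases at day 14. The values of 1 gene of the wider lists are not reported here. Members and lists were chosen with earlier results of these data known. The procedure was run on simulated data, with changes well past 3-fold set in bright probes only. That run does not speak to dim probes or to changes near 3-fold. Alternatives were normexp (offset 50), quantile normalization, median centring, the series table, dim signals at the detection limit, a filter on all arrays or none, 2-fold and the mean of a gene's probes. Tools were Python 3.11.15, numpy 2.4.6, pandas 2.3.3, matplotlib 3.10.9, R 4.3.3 and limma 3.58.1.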

Additional observations from a re-analysis of the deposited data

How the results depend on the processing

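No paired analysis was possible because a single array stood for each population, and no replicate could be left out. At day 7, 2 of 9 genes were past 3-fold against EHe. The count was 1 with normexp, with dim values at the detection limit, with probes well above background on all arrays and with the mean of a gene's probes, and 4 at a 2-fold threshold. At day 14 the count of 2 became 1 under the first 4 of these settings. In each case of 1 the gene left was lower than EHe and no gene was higher. In EHe against ES the count of 0 became 1 at 2-fold. The wider lists went from 16 genes past 3-fold to 10 with normexp, under which the array-wide shares at day 14 fell to 3.17% higher and 2.04% lower. The other 35 values of these counts and of the target list's median stayed within 1.5 times their value or within the spread. Under median centring Pim1 at day 7 was -0.02 against EHe and Jak1 at day 14 was -0.09, and the mean of both probes also turned Jak1. In EHe against ES, the mean of both probes turned Jak1 from -0.14 to 0.44. There, dim values at the detection limit turned Osmr from -0.86 to 0.58. Dim signals limit Osmr, Il6ra and the acute-phase genes. The cause of these changes was not tested beyond the construction of each setting.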
